A study of Mus musculus with 2 samples.

Results

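The genes described here are 8 collagen genes of the beaded-filament, FACIT and network subfamilies: *Col6a1*, *Col6a2*, *Col6a3*, *Col8a1*, *Col8a2*, *Col12a1*, *Col14a1* and *Col16a1*. They were taken by symbol from the 32287 features of the count matrices, and each symbol was found once. Single-cell RNA sequencing was performed on 2 thoracic aortas of wild-type mice on the C57BL/6J background. These GFPiSMC animals carry *Myh11*-CreERT2, a Cre that tamoxifen activates in smooth muscle cells (SMCs), and the mT/mG reporter, in which recombination replaces tdTomato by eGFP. Per the labels, both mice, 12 weeks old at study, had received 1 mg tamoxifen daily over 5 days from the age of 3 weeks. The study's methods give other ages for tamoxifen, and which applied to these mice was not settled here. No cell came from an animal without Cre, reporter and tamoxifen. Sorting kept viable single cells whether or not they carried GFP. The aortas form 1 group (n = 2), and the comparisons are between cell types of the same vessels. They address which cells of the normal aortic wall express each collagen.

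Collagen VI is assembled from chains encoded by *Col6a1*, *Col6a2* and *Col6a3* and forms beaded microfilaments close to cell surfaces, where it links cells to the surrounding matrix. Collagens XII, XIV and XVI, encoded by *Col12a1*, *Col14a1* and *Col16a1*, are FACITs (fibril-associated collagens with interrupted triple helices). They do not form fibrils themselves but decorate the surface of fibrils or other matrix aggregates. Collagen VIII, built from the chains of *Col8a1* and *Col8a2*, is a short-chain collagen that forms hexagonal networks, is best known from the basement membrane of the corneal endothelium, and is also made by vascular cells. In the aortic wall, SMCs populate the media, fibroblasts the adventitia, endothelial cells the lumen, and mesothelial cells cover part of the outer surface.

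The collagen VI genes lie on 2 chromosomes (GRCm38, GENCODE M21). *Col6a1* (ENSMUSG00000001119, chr10:76708792-76726168) and *Col6a2* (ENSMUSG00000020241, chr10:76595762-76623630) are both on the minus strand and are separated by 85161 bases. *Col6a3* (ENSMUSG00000048126, chr1:90765923-90843971) is on the minus strand of chromosome 1. *Col8a1* (ENSMUSG00000068196, chr16:57624258-57754737) is on the minus strand, and *Col8a2* (ENSMUSG00000056174, chr4:126286793-126314330) on the plus strand. *Col12a1* (ENSMUSG00000032332) spans chr9:79598991-79718831 on the minus strand. *Col14a1* (ENSMUSG00000022371) spans chr15:55307750-55520803 and *Col16a1* (ENSMUSG00000040690) chr4:130047840-130099283, both on the plus strand. The annotation places *Gm36970* within *Col6a3* on the same strand, *4930562D21Rik* opposite *Col12a1*, and *1700040F17Rik*, *Gm18787* and *Gm49257* opposite *Col14a1*. Whether the counting used the strand was not given in the sources used here, so reads of these overlapping genes may not be separated.

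Promoter sequences are shown for collagen VI, in which the first pair of genes and the third differed in their pattern among cells, and for collagen VIII, of which *Col8a1* but not *Col8a2* was also found in endothelial cells. They are RefSeq sequences of GRCm38.p6, available for 6 of the 8 genes, and are restricted to the bases before the first annotated transcript start. *Col6a1* is shown at chr10:76726169-76726294 (minus strand), *Col6a2* at chr10:76623631-76623880 (minus), *Col6a3* at chr1:90843972-90844221 (minus), *Col8a1* at chr16:57754738-57754987 (minus) and *Col8a2* at chr4:126286544-126286792 (plus). Each is written 5′ to 3′ on the strand of the gene, and capitals mark GGGCGG, a core sequence bound by Sp1-type factors, on either strand.
Col6a1: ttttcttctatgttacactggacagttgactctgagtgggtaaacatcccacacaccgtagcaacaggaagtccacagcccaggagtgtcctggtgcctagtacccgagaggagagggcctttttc
Col6a2: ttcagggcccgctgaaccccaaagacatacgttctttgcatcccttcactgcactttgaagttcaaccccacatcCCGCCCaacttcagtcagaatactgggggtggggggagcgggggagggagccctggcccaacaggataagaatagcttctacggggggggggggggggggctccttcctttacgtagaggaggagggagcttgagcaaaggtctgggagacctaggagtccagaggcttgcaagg
Col6a3: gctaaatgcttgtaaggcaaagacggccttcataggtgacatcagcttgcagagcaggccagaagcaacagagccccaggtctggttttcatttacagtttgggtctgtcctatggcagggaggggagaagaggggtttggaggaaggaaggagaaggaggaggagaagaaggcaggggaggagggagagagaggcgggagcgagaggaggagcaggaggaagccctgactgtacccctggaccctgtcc
Col8a1: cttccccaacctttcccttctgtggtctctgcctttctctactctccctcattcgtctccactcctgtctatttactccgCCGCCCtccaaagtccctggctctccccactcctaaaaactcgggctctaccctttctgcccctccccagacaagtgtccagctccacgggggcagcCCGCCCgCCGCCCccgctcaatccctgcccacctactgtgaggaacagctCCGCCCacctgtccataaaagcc
Col8a2: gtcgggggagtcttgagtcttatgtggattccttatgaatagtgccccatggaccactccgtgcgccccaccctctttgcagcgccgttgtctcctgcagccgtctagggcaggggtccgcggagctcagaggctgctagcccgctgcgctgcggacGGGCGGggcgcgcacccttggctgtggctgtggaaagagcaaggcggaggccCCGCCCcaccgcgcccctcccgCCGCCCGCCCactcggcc

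The collagen VIII promoters each held 4 matches to GGGCGG, some of them overlapping, whereas the windows of *Col6a1*, *Col6a2* and *Col6a3* held 0, 1 and 0. Over the 32851 promoters of the same reference table, 32.7% had at least 1 match in the 250 bases before the start. The *Col6a1* window is only 126 bases, which lowers its chance of a match. No TATAAA was found on either strand of the 6 promoters, a sequence present in 12.4% of all promoters, nor was TGANTCA, present in 6.75%. CAGAC occurred once in *Col6a2*, 2 times in *Col6a3* and once in *Col8a1*, against 42.2% of all promoters with at least 1 match. The GC content was 51.6% for *Col6a1*, 59.2% for *Col6a2*, 57.2% for *Col6a3*, 60.8% for *Col8a1*, 69.9% for *Col8a2* and 75.6% for *Col16a1*, with a median of 52.4% over all promoters. These matches describe the letters only.

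Aorta 1 was deposited with 8947 cells and aorta 2 with 6263, holding 47009780 and 30919996 unique molecular identifiers (UMIs), which count captured RNA molecules. After filtering, 6539 and 4614 cells were analyzed, with a median of 5671 and 5396.5 UMIs. The barcode sets of the 2 aortas shared 18 barcodes. Marker-based clustering gave 2342 and 1678 SMCs, 1520 and 1078 fibroblasts, 740 and 654 endothelial cells, and 274 and 158 mesothelial cells. SMC markers reached 41289 and 39527 CPM in SMCs (CPM, the UMIs of a gene per 1000000 of all UMIs in those cells). Fibroblast markers summed to 9968 and 10577 CPM in fibroblasts but 217 and 199 CPM in SMCs. The 8 genes contributed 114142 UMIs in all. Because a 3′ library counts molecules near their 3′ end, CPM are not divided by gene length, and levels are compared between cells for a gene rather than between genes.

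The 8 genes differed in how closely they were restricted to fibroblasts. Collagen VI transcripts were abundant in both SMCs and fibroblasts, the FACITs were concentrated in fibroblasts, and collagen VIII divided between fibroblasts and, for *Col8a1* but not *Col8a2*, endothelial cells. In the comparison of SMCs with fibroblasts, 6 of the 8 genes were called by edgeR's quasi-likelihood test (log2 fold change beyond 1 in size, with an adjusted p under 0.05), all lower in SMCs. Of 13990 genes fitted, 12281 were kept as the background, leaving out the variable genes used for clustering and the cell type markers. Of these, 22.9% were called in either direction and 12.9% were called as higher in fibroblasts. Every share or count of called genes below, and every median over all genes, leaves out such genes likewise. Shares with them kept were not computed. The log2 fold changes of the 8 genes ranged from -5.56 to -0.89 with a median of -3.35, against a median of -0.03 over all genes tested. With DESeq2 that overall median was -0.31, and all 8 genes stayed lower in SMCs. The share of called genes that were higher in SMCs was 29.4% with DESeq2 against 43.6% with edgeR. Relative to the median of all genes, the log2 fold changes of *Col6a2* (-0.86) and *Col6a3* (-0.91) were the same with both.

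**Figure D1:**
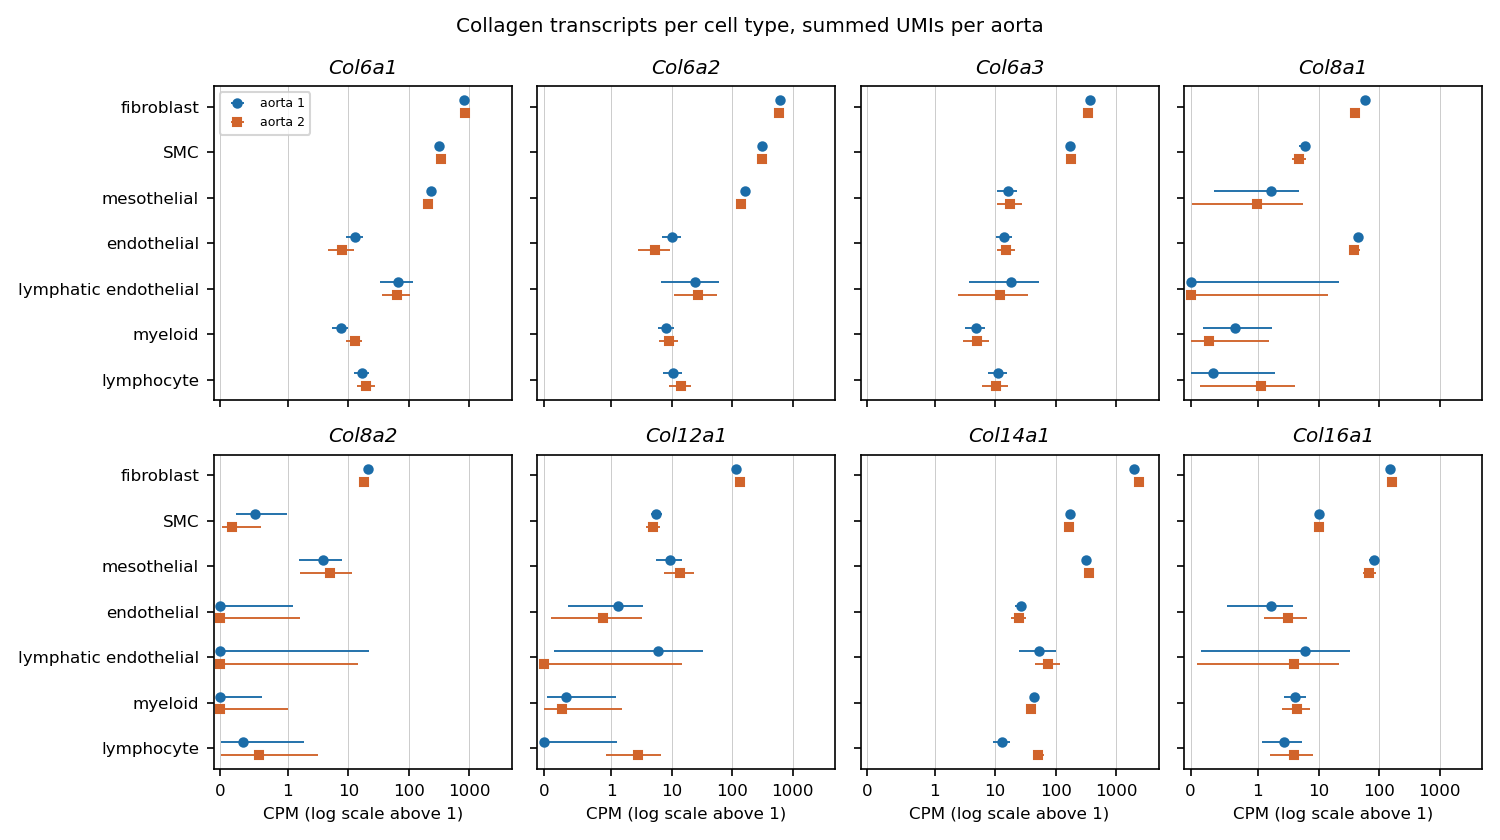
Level of each of the 8 collagen genes (CPM, log axis above 1 and linear below it) in each cell type, with 1 point for each aorta and bars for exact Poisson intervals of the counting error. *Col14a1* is at 1995 and 2369 CPM in fibroblasts against 176 and 165 CPM in SMCs, and *Col8a1* is the gene for which endothelial cells (45.1 and 39.1 CPM) come close to fibroblasts (58.2 and 39.8 CPM).

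*Col6a1*, which encodes the α1 chain of collagen VI, was measured in fibroblasts at 812 CPM in aorta 1 and 844 CPM in aorta 2, and in SMCs at 320 and 345 CPM. Mesothelial cells followed at 236 and 210 CPM. The 3 types did not overlap between aortas, and SMCs were lower than fibroblasts by a log2 fold change of -1.24 ± 0.15 (SE, edgeR adjusted p = 1.44e-07). SMCs were higher than mesothelial cells by 0.84 ± 0.17 (adjusted p = 1.86e-04), which did not pass the fold limit. Endothelial cells (12.8 and 7.91 CPM) and myeloid cells (7.46 and 12.7 CPM) lay below lymphocytes (16.9 and 19.8 CPM), cells that do not make collagen and that served as the background of free RNA. No order is therefore read among these low types.

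*Col6a2*, which encodes the α2 chain, was found at 608 and 591 CPM in fibroblasts, 305 and 308 CPM in SMCs and 161 and 137 CPM in mesothelial cells. SMCs had a lower level than fibroblasts, with a log2 fold change of -0.89 ± 0.12 (edgeR adjusted p = 3.09e-07), short of the fold limit. They exceeded mesothelial cells by 1.29 ± 0.14 (adjusted p = 9.26e-09), which was called. *Col6a3*, which encodes the α3 chain, was at 371 and 344 CPM in fibroblasts and 173 and 181 CPM in SMCs. Its log2 fold change between SMCs and fibroblasts was -0.94 ± 0.09 (adjusted p = 1.62e-09), also short of the fold limit. It passed that limit at -1.21 with DESeq2 and at -1.03 when the collagens and the gene lists were allowed into the clustering, and *Col6a2* passed it at -1.17 with DESeq2. The *Col6a3* value was -1.01 in aorta 1 alone and -0.87 in aorta 2 alone.

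*Col6a3* differed from its partners in mesothelial cells. Its level there was 16.0 and 17.8 CPM, close to the 14.2 and 15.4 CPM of endothelial cells and the 11.2 and 10.2 CPM of lymphocytes. The difference between endothelial and mesothelial cells was -0.11 ± 0.25 on the log2 scale (edgeR adjusted p = 0.795). SMCs exceeded mesothelial cells by a log2 fold change of 3.67 ± 0.16 for *Col6a3* (adjusted p = 2.84e-16). Fibroblasts exceeded mesothelial cells by 4.61 ± 0.15 for *Col6a3*, 2.19 ± 0.14 for *Col6a2* and 2.08 ± 0.17 for *Col6a1*. In counts, mesothelial cells of aorta 1 gave 426 UMIs of *Col6a1* and 29 of *Col6a3*, and those of aorta 2 gave 212 and 18. Per UMI of *Col6a1*, *Col6a3* UMIs numbered 0.0681 and 0.0849 in mesothelial cells, 0.541 and 0.524 in SMCs and 0.457 and 0.407 in fibroblasts. The size of this ratio depends on how each transcript is captured, so only its change between cells is described.

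SMCs outnumbered fibroblasts and held more RNA per cell (median 7633 and 7465 UMIs against 5927 and 5707.5). They gave 42.2% and 43.7% of all UMIs, and fibroblasts 23.1% and 23.5%. The molecules recovered were nearly evenly divided between the 2 types for *Col6a2* and *Col6a3*, while fibroblasts held more for *Col6a1*. SMCs accounted for 40.9% ± 1.18 of all *Col6a1* UMIs (mean ± SD, n = 2) and fibroblasts for 55.3% ± 0.462. For *Col6a2* the shares were 46.9% ± 1.22 and 49.9% ± 0.599, and for *Col6a3* 46.7% ± 2.37 and 51.2% ± 2.35. The order of the 2 types turned for these genes when cells were limited to 5000 to 25000 UMIs, with SMCs at 50.7% and fibroblasts at 44.5% for *Col6a2*, and at 48.1% and 45.9% for *Col6a3*. Per cell, SMCs gave 2.37 and 2.48 UMIs of *Col6a1* and fibroblasts 5.08 and 5.09. These shares hold for the cells recovered after digestion and sorting, not for the intact wall.

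The share of cells with a transcript gave the same order. With every cell thinned to 1000 UMIs, *Col6a1* was found in 25.3% and 28.4% of SMCs, 53.4% and 55.5% of fibroblasts, and 0.809% and 1.67% of lymphocytes. Without thinning, the shares were 72.1% and 75.8% of SMCs, 93.4% and 93.5% of fibroblasts and 3.72% and 4.17% of lymphocytes, whose median depth was 4070 and 3876.5 UMIs. *Col6a2* was found after thinning in 22.1% and 25.5% of SMCs and *Col6a3* in 15.1% and 15.1%, against at most 0.556% of lymphocytes for either gene. For *Col6a2* and *Col6a3* the unthinned shares were 69.9% and 73.8%, and 53.1% and 56.3%, of SMCs. No cell was left out of the thinning, since each had at least 1000 UMIs.

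Transcripts of fibroblast markers in SMCs give a measure of how much fibroblast RNA the SMC sums could hold. The 6 markers were present in SMCs at 0.00505 to 0.0509 of their fibroblast level in aorta 1 and 0.0039 to 0.0494 in aorta 2. The same ratio was 0.394 and 0.409 for *Col6a1*, 0.501 and 0.520 for *Col6a2* and 0.466 and 0.526 for *Col6a3*, all above the range of the markers. *Col8a1* (0.101 and 0.121), *Col14a1* (0.0880 and 0.0697) and *Col16a1* (0.0676 and 0.0630) also lay above it. *Col8a2* (0.0241 and 0.00905) and *Col12a1* (0.0480 and 0.0368) lay inside it, so their low SMC levels are not distinguished from those of transcripts that define fibroblasts. For *Col8a1* and *Col16a1* the place above the range rested on 1 small SMC subset, subset 6, which is described below and held 99 of the 160 *Col8a1* UMIs of SMCs. Without it the markers ranged up to 0.0437 and 0.0453, and the ratio was 0.0419 and 0.0455 for *Col8a1* and 0.0504 and 0.0409 for *Col16a1*, so that each exceeded the markers in 1 aorta alone. *Col14a1* (0.0684 and 0.0551) stayed above the markers in both aortas, as did *Col6a1* (0.396 and 0.407).

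**Figure D2:**
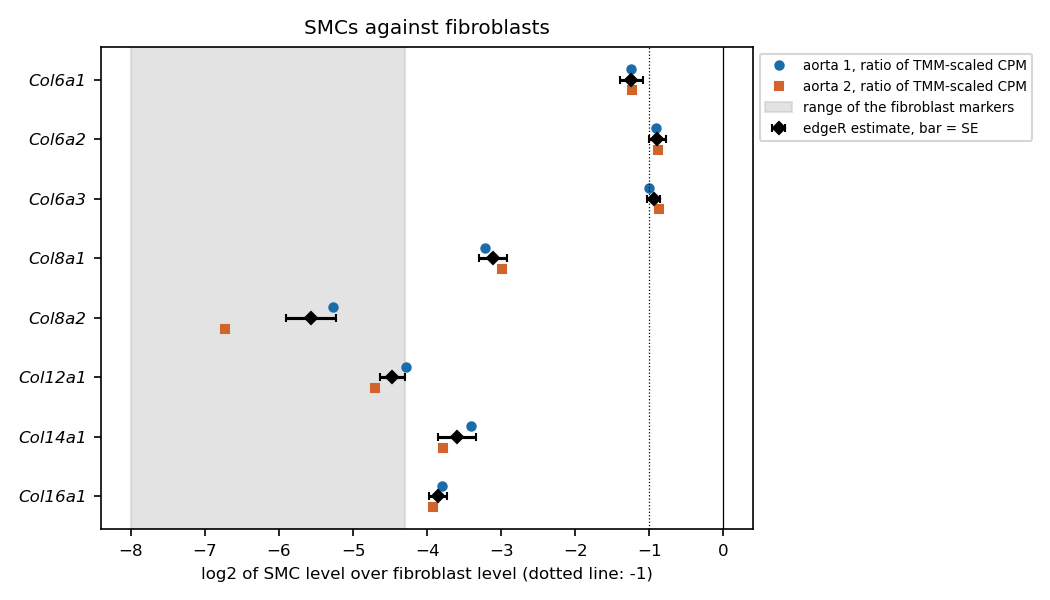
Log2 fold change of SMCs over fibroblasts for each gene (edgeR, bars show the SE) with the log2 ratio of each aorta as points. The grey band spans the log2 ratios of the 6 fibroblast markers, from CPM without TMM scaling, and the dotted line marks the fold limit. The collagen VI genes lie nearest to 0, from -1.24 to -0.89, and *Col8a2* and *Col12a1* lie farthest, at -5.56 and -4.47.

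Among the FACITs, *Col14a1*, which encodes a collagen found along fibrils of many soft tissues, was at 1995 and 2369 CPM in fibroblasts. Mesothelial cells had 317 and 357 CPM and SMCs 176 and 165 CPM. SMCs were lower than fibroblasts by a log2 fold change of -3.60 ± 0.26 (edgeR adjusted p = 4.72e-12), and the difference between SMCs and mesothelial cells, -0.71 ± 0.25 (adjusted p = 0.0219), did not pass the fold limit. Fibroblasts held 83.8% ± 2.02 of its UMIs and SMCs 12.1% ± 1.57. After thinning, 71.8% and 80.0% of fibroblasts, 13.3% and 10.8% of SMCs and 0.809% and 1.39% of lymphocytes had a transcript (94.3% and 95.4%, 42.4% and 38.3%, and 4.69% and 4.72% without thinning). Endothelial cells (26.4 and 24.6 CPM) lay between the lymphocyte levels of the 2 aortas (12.9 and 51.5 CPM). In aorta 2, 65 of the 91 lymphocyte UMIs came from 32 cells of a cluster led by the proliferation genes *Top2a* and *Mki67*.

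*Col12a1*, which encodes a FACIT known from tendon and other load-bearing tissues, was at 116 and 133 CPM in fibroblasts, 9.40 and 13.9 CPM in mesothelial cells and 5.58 and 4.88 CPM in SMCs. SMCs were lower than fibroblasts by -4.47 ± 0.17 on the log2 scale (edgeR adjusted p = 1.11e-17) and did not differ detectably from mesothelial cells (-0.79 ± 0.36, adjusted p = 0.0729). Fibroblasts held 90.7% ± 0.970 of its UMIs. *Col16a1*, which encodes a minor FACIT of fibrillar matrices, was at 152 and 164 CPM in fibroblasts, 81.3 and 69.4 CPM in mesothelial cells and 10.3 and 10.3 CPM in SMCs. Its order thus placed mesothelial cells well above SMCs, with a log2 fold change of -2.61 ± 0.15 for SMCs over mesothelial cells (adjusted p = 8.81e-14). The log2 fold change of SMCs over fibroblasts was -3.85 ± 0.12 (adjusted p = 2.46e-19). Fibroblasts exceeded mesothelial cells by 1.24 ± 0.12 (adjusted p = 6.55e-09), the smallest difference between these types among the 8 genes. Mesothelial cells gave 6.75% ± 1.90 of *Col16a1* UMIs. The 6 fibroblast markers summed to more in mesothelial cells (2172 and 3237 CPM) than in SMCs, mainly through *Serping1* (1393 and 1600 CPM) and *Clec3b* (663 and 1519 CPM). *Pdgfra* (75.2 and 31.7 CPM) and *Cygb* (35.4 and 72.3 CPM) were also higher there than in SMCs (15.3 and 12.9 CPM, and 9.61 and 8.11 CPM). *Lum* (2.76 and 7.93 CPM) and *Dpt* (3.32 and 5.95 CPM) were lower there than in SMCs (52.6 and 39.8 CPM, and 9.73 and 10.9 CPM). The part of fibroblast RNA in these mesothelial levels was not tested.

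For collagen VIII, *Col8a1*, which encodes the α1 chain, was at 58.2 and 39.8 CPM in fibroblasts and 45.1 and 39.1 CPM in endothelial cells. The ranges of the 2 types overlapped, and the log2 fold change of fibroblasts over endothelial cells was 0.34 ± 0.18 (edgeR adjusted p = 0.128). SMCs had 5.87 and 4.80 CPM, lower than fibroblasts by -3.11 ± 0.18 (adjusted p = 2.61e-13) and lower than endothelial cells by -2.77 ± 0.21 (adjusted p = 4.22e-11). It was the only gene of the 8 called as lower in SMCs than in endothelial cells. Mesothelial cells (1.66 and 0.991 CPM, from 3 and 1 UMIs) and lymphocytes (0.339 and 1.13 CPM) were near 0. Fibroblasts held 66.0% ± 3.97 of *Col8a1* UMIs, endothelial cells 19.4% ± 3.30 and SMCs 13.4% ± 1.03. With cells limited to 5000 to 25000 UMIs, the shares were 70.5%, 10.5% and 7.27%, and 10.3% lay in a cluster without a name.

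Within endothelial cells, *Col8a1* was concentrated in 1 of 3 clusters. A cluster of 221 and 189 cells led by *Gkn3*, *Bmx* and *Sox17*, genes associated with arterial endothelium, had 115 and 110 CPM. The larger cluster led by *Vwf*, *Emcn* and *Bmp6* (478 and 416 cells) had 15.3 and 10.6 CPM, and a small cluster led by *Gpihbp1* and *Fabp4* (41 and 49 cells) gave 1 and 0 UMIs. No test was made between clusters. At 115 and 110 CPM, the level of the first cluster was higher than that of all fibroblasts summed in both aortas. Single fibroblast subsets described below came nearer: one led by *Lamc3* had 114 and 62.7 CPM, and one led by *Klf5* 40.0 and 87.3 CPM. After thinning, 2.97% and 3.06% of endothelial cells and 4.87% and 3.71% of fibroblasts had a *Col8a1* transcript, against 0.854% and 0.656% of SMCs. Without thinning, the shares were 10.9% and 7.49% of endothelial cells at a median depth of 3742 and 3042 UMIs, 17.4% and 12.4% of fibroblasts, 2.86% and 1.97% of SMCs, and 0.162% and 0.556% of lymphocytes.

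*Col8a2*, which encodes the α2 chain, was at 21.5 and 18.3 CPM in fibroblasts, from 204 and 119 UMIs, and at 3.87 and 4.96 CPM in mesothelial cells, from 7 and 5 UMIs. It gave 0 UMIs in the endothelial cells of both aortas. Set against the level that 3 UMIs would have given in endothelial cells, fibroblasts were at least 21.7-fold higher in aorta 1 and at least 13.9-fold higher in aorta 2. SMCs gave 9 and 2 UMIs (0.518 and 0.166 CPM), a level also seen in lymphocytes (0.339 and 0.566 CPM) and therefore read as background. The log2 fold change of SMCs over fibroblasts was -5.56 ± 0.34 (edgeR adjusted p = 4.72e-12), and the ratio of aorta 2 alone was -6.73, from 2 SMC UMIs. Fibroblasts held 93.0% ± 0.985 of *Col8a2* UMIs. The endothelial cells that contained *Col8a1* transcripts thus yielded no transcripts of the partner chain at this depth.

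In the other pairs of cell types, 7 of the 8 genes were called between SMCs and endothelial cells, where 26.4% of all genes were called. *Col8a2* was not (adjusted p = 0.104, edgeR). The log2 fold changes of SMCs over endothelial cells were 5.15 for *Col6a1*, 5.44 for *Col6a2* and 3.78 for *Col6a3*, and 2.93, 2.39 and 2.37 for *Col14a1*, *Col12a1* and *Col16a1*. Between SMCs and mesothelial cells 5 genes were called, against 26.5% of all genes: *Col6a2*, *Col6a3* and *Col8a1* were higher in SMCs, and *Col8a2* and *Col16a1* lower. The value for *Col8a1* (2.17 ± 0.65) rests on 4 mesothelial UMIs. Between fibroblasts and endothelial cells 7 genes were called (22.2% of all genes), with *Col8a1* the exception. All 8 were called as higher in fibroblasts than in mesothelial cells (21.4% of all genes). Between endothelial and mesothelial cells 7 were called (22.3% of all genes), 6 of them lower in endothelial cells and *Col8a1* higher by 4.94 ± 0.48.

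SMCs were then divided into subsets, and fibroblasts likewise, by clustering that left out the 8 collagens and the gene lists. The test among 12 SMC subsets with at least 10 cells in each aorta called 7 of the 7 collagen genes that passed the filter on low counts, and *Col8a2* did not pass it. In all, 49.6% of all genes differed among SMC subsets, and the subsets were cut from the same cells. The p-values therefore only set subset differences against the spread between the 2 aortas, pooled over subsets. A subset is named below by its leading genes. Subset 6 of SMCs, described separately below, had 1568 CPM of fibroblast markers against 53.9 to 353 CPM in the other 11.

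*Col6a1* ranged from 131 to 792 CPM among the SMC subsets. It was highest in a subset led by *Hhip* and *Chrdl2* (663 and 792 CPM) and in one led by the developmental transcription factor genes *Dlx6*, *Dlx5* and *Prrx2* (586 and 584 CPM). A subset led by *Nrn1*, *Scin* and *Sox9* followed (493 and 540 CPM). The subset led by the cardiac transcription factor gene *Hand2*, the largest, had 201 and 222 CPM, and one led by the p53 targets *Cdkn1a* and *Mdm2* had 149 and 131 CPM. The *Hhip*, *Dlx6* and *Nrn1* subsets stood above all others in both aortas, and levels differed among subsets (edgeR adjusted p = 3.64e-13).

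*Col6a2* showed nearly the same order, with 634 and 573 CPM in the *Hhip* subset, 602 and 520 CPM in the *Dlx6* subset and 181 and 201 CPM in the *Hand2* subset (edgeR adjusted p = 2.88e-13). Over the 12 subsets, Pearson's r between *Col6a1* and *Col6a2* was 0.965 in aorta 1 and 0.964 in aorta 2 on the log2(CPM + 1) scale. It was 0.445 and 0.351 between *Col6a1* and *Col6a3*. These correlations are descriptive, since the subsets share a library.

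*Col6a3* followed another order (edgeR adjusted p = 1.48e-14). It was highest in a subset led by *Vcam1* and *Lgals3* (310 and 257 CPM), in the subset with fibroblast markers (268 and 319 CPM) and in a subset led by *Hoxa7*, *Hoxb7* and *Hoxb8* (231 and 251 CPM). The lowest level was in a subset led by *Pln*, *Sncg* and *Notch3* (67.3 and 62.9 CPM). In the *Dlx6* subset it was 180 and 175 CPM, and in the *Hand2* subset 110 and 97.4 CPM. Per UMI of *Col6a1*, *Col6a3* UMIs numbered 0.255 and 0.255 in the *Hhip* subset and 0.308 and 0.30 in the *Dlx6* subset. In the *Vcam1* subset the ratio was 0.804 and 0.911, and in the *Hox* subset 0.865 and 0.887. The SMCs with the most *Col6a1* and *Col6a2* were thus not those with the most *Col6a3*.

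**Figure D3:**
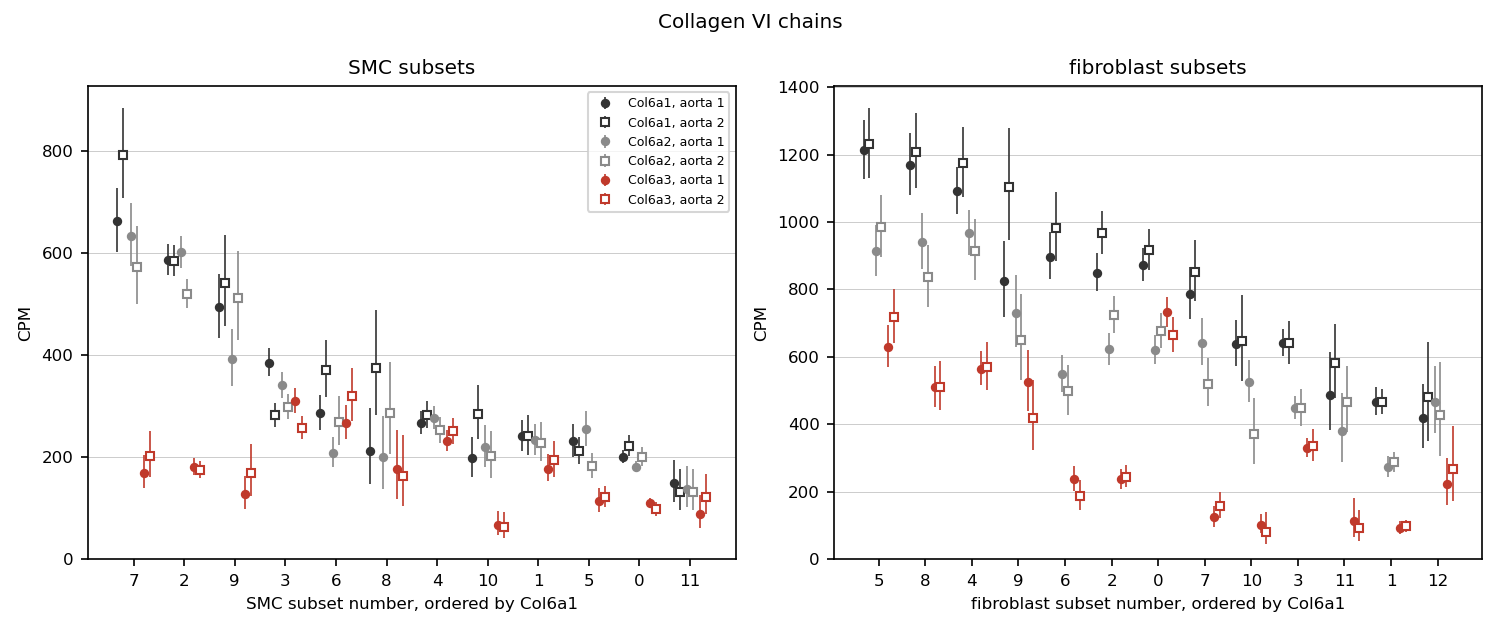
Levels of *Col6a1*, *Col6a2* and *Col6a3* (CPM) in each subset of SMCs and of fibroblasts, with 1 point for each aorta and exact Poisson intervals for counting error. Among SMCs, *Col6a1* and *Col6a2* are highest in subsets 2 and 7 and *Col6a3* in subsets 3 and 6. Among fibroblasts, *Col6a3* is far lower in subset 1 (92.9 and 97.7 CPM) than in subset 0 (732 and 664 CPM).

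The FACITs and *Col8a1* had a shared high point in SMC subset 6, of 145 and 66 cells, led by *Dcn*, *Lum*, *Serpinf1* and *Mmp3*. *Col14a1* was at 838 and 1004 CPM there, against 310 and 290 CPM in the *Dlx6* subset, the next highest, and 43.3 to 142 CPM elsewhere (edgeR adjusted p = 1.14e-22). *Col12a1* was at 46.5 and 67.1 CPM (adjusted p = 8.55e-11), *Col16a1* at 54.8 and 98.6 CPM (adjusted p = 2.07e-11), and *Col8a1* at 64.1 and 77.6 CPM (adjusted p = 3.64e-12). None of the other 11 subsets exceeded 9.61 CPM for *Col12a1*, 13.5 CPM for *Col16a1* or 36.4 CPM for *Col8a1* in either aorta. This subset also had 1556 and 1592 CPM of fibroblast markers, 27773 and 25569 CPM of SMC markers, 4868 and 3510 CPM of eGFP and 247 and 289 CPM of tdTomato. Fibroblasts, for comparison, had 317 and 314 CPM of eGFP, a value raised by a few subsets, such as the 46 cells of fibroblast subset 11, led by SMC genes, at 8236 and 7216 CPM. The largest fibroblast subset had 44.9 and 34.8 CPM. The part of fibroblast RNA in this subset was not tested.

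Without the 350 cells of this subset and of the *Nrn1* subset, both of which had *Lum* among their leading genes, the log2 fold change of SMCs over fibroblasts for *Col8a1* went from -3.11 to -4.64. It went from -4.47 to -5.39 for *Col12a1*, from -5.56 to -6.24 for *Col8a2*, from -3.85 to -4.33 for *Col16a1* and from -3.60 to -3.93 for *Col14a1*. For the collagen VI genes the values without these cells were -1.25, -0.88 and -0.97. The value of *Col8a1* thus moved most, and those of collagen VI least.

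**Figure D4:**
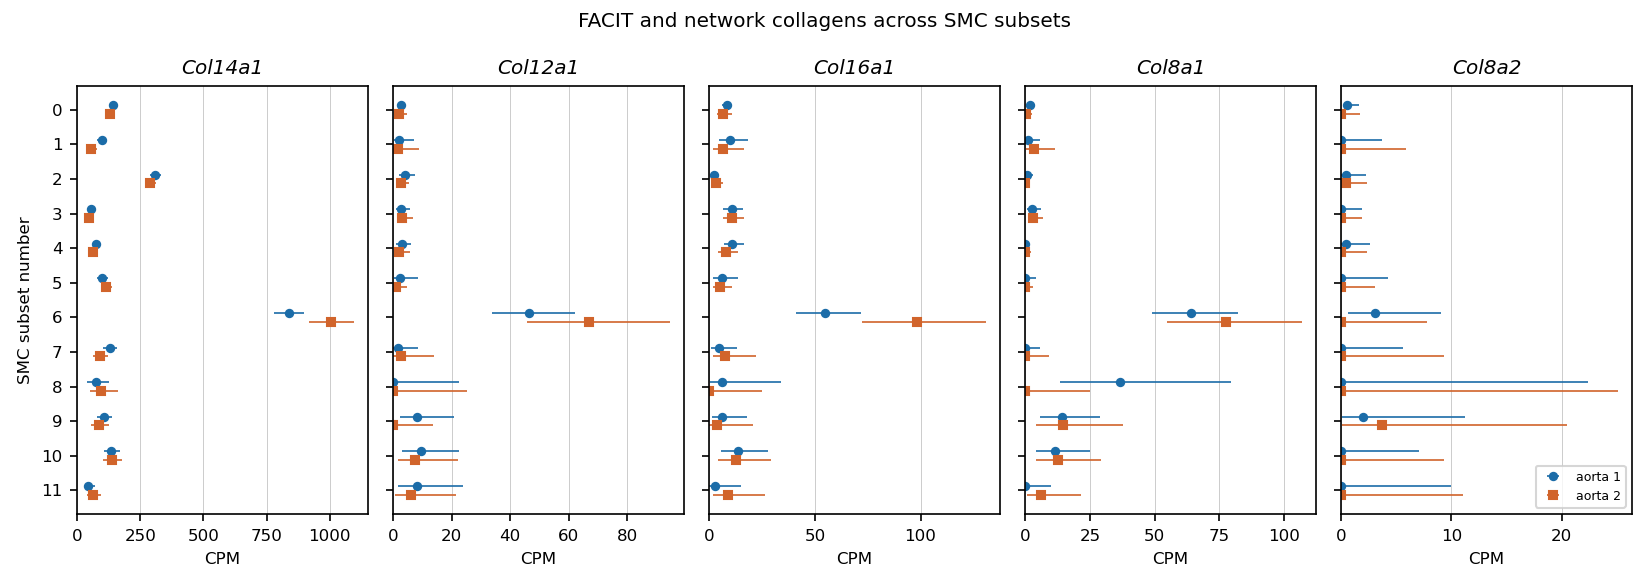
Levels of *Col14a1*, *Col12a1*, *Col16a1*, *Col8a1* and *Col8a2* (CPM) in each SMC subset, with 1 point for each aorta and exact Poisson intervals for counting error. Subset 6, which had fibroblast markers at 1568 CPM, is the highest in both aortas for each gene but *Col8a2*, for example at 838 and 1004 CPM for *Col14a1*, whereas *Col8a2* rests on 11 UMIs over all SMCs.

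Fibroblasts fell into 13 subsets, and 8 of the 8 genes differed among them, where 38.0% of all genes did. *Col6a3* had the smallest adjusted p (6.46e-19, edgeR), followed by *Col14a1* (1.46e-16), *Col16a1* (4.10e-15) and *Col12a1* (1.91e-14). The values were 3.62e-11 for *Col6a2*, 4.26e-11 for *Col6a1*, 1.31e-09 for *Col8a2* and 1.95e-04 for *Col8a1*. Subset 11 (46 cells) was led by *Actg2*, *Myh11* and eGFP and subset 12 (34 cells) by immune genes, and neither is described further. Without subset 11, the log2 fold changes of SMCs over fibroblasts kept their side of both limits.

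A subset led by *Pla1a*, *Dpp4*, *Dact2* and *Cd55* (148 and 181 cells) combined the highest *Col14a1* with low collagen VI. *Col14a1* was at 3196 and 3301 CPM there and *Col12a1* at 282 and 225 CPM, both the highest among fibroblast subsets. *Col6a1* was at 467 and 465 CPM, *Col6a2* at 272 and 287 CPM and *Col6a3* at 92.9 and 97.7 CPM. *Col16a1* was at 56.1 and 68.4 CPM and *Col8a2* at 2.76 and 2.25 CPM. In this subset *Col16a1* was thus low where *Col12a1* and *Col14a1* were high, which did not hold in a subset led by *C1qtnf3* and *Sfrp2*, where *Col14a1* was at 2698 and 3137 CPM, *Col12a1* at 233 and 169.7 CPM and *Col16a1* at 222 and 264 CPM.

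A subset led by *Fmod*, *Pax1* and *Vegfd* (218 and 164 cells) had 732 and 664 CPM of *Col6a3*, 254 and 283 CPM of *Col16a1* and 2222 and 2379 CPM of *Col14a1*. *Col6a1* was highest in a subset led by *Klf5*, *Kitl* and *Hhip* (1213 and 1231 CPM), closely followed by one led by *Dner* and *Gpnmb* (1170 and 1208 CPM) and one led by *C1qtnf3*, *Sfrp2* and *Fmod* (1091 and 1174 CPM). *Col8a2* was highest in the *Klf5* subset in aorta 1 (70.3 CPM) and in the *C1qtnf3* subset in aorta 2 (50.5 CPM), so that the order of these subsets did not repeat between the aortas.

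A subset led by *Lamc3*, *Cytl1* and *Meox1* (210 and 94 cells) had low *Col14a1* (969 and 1280 CPM) and low *Col12a1* (31.1 and 52.8 CPM), but *Col8a1* at 114 and 62.7 CPM. *Col8a1* was the least repeatable gene: it was highest in the *Lamc3* subset in aorta 1 and in the *Klf5* subset in aorta 2 (40.0 and 87.3 CPM), and the *Pla1a* subset had 53.3 and 15 CPM. A subset led by *Aqp1* and *Mab21l2* (87 and 21 cells) was low for most of the genes, with 9.27 and 18.8 CPM of *Col16a1*, 1.85 and 0 CPM of *Col8a1* and 836 and 741 CPM of *Col14a1*, while *Col6a1* was at 638 and 647 CPM. Fibroblast markers were at 5429 and 6994 CPM in that subset, and eGFP at 1294 and 1074 CPM.

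Over the 13 fibroblast subsets, Pearson's r was 0.949 and 0.883 between *Col12a1* and *Col14a1*, 0.894 and 0.898 between *Col6a1* and *Col6a2*, and 0.715 and 0.696 between *Col6a1* and *Col6a3*. *Col16a1* had r of 0.805 and 0.729 with *Col6a3*, 0.726 and 0.90 with *Col14a1*, and 0.702 and 0.823 with *Col12a1*. Without subsets 11 and 12, whose leading genes were those of SMCs and immune cells, r over 11 subsets was 0.878 and 0.896 for *Col12a1* and *Col14a1*, 0.944 and 0.936 for *Col6a1* and *Col6a2*, 0.753 and 0.750 for *Col6a1* and *Col6a3*, and 0.814 and 0.873 for *Col6a3* and *Col16a1*. *Col16a1* then had r of 0.429 and 0.595 with *Col14a1*, and 0.459 and 0.742 with *Col12a1*. Without subset 11 alone, r for *Col12a1* and *Col14a1* was 0.832 and 0.830. These values are descriptive and cover subsets of 1 library each. Per UMI of *Col6a1*, *Col6a3* UMIs ranged over the 13 subsets from 0.126 in the *Aqp1* subset (aorta 2, from 13 *Col6a3* UMIs) to 0.839 in the *Fmod* subset (aorta 1).

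**Figure D5:**
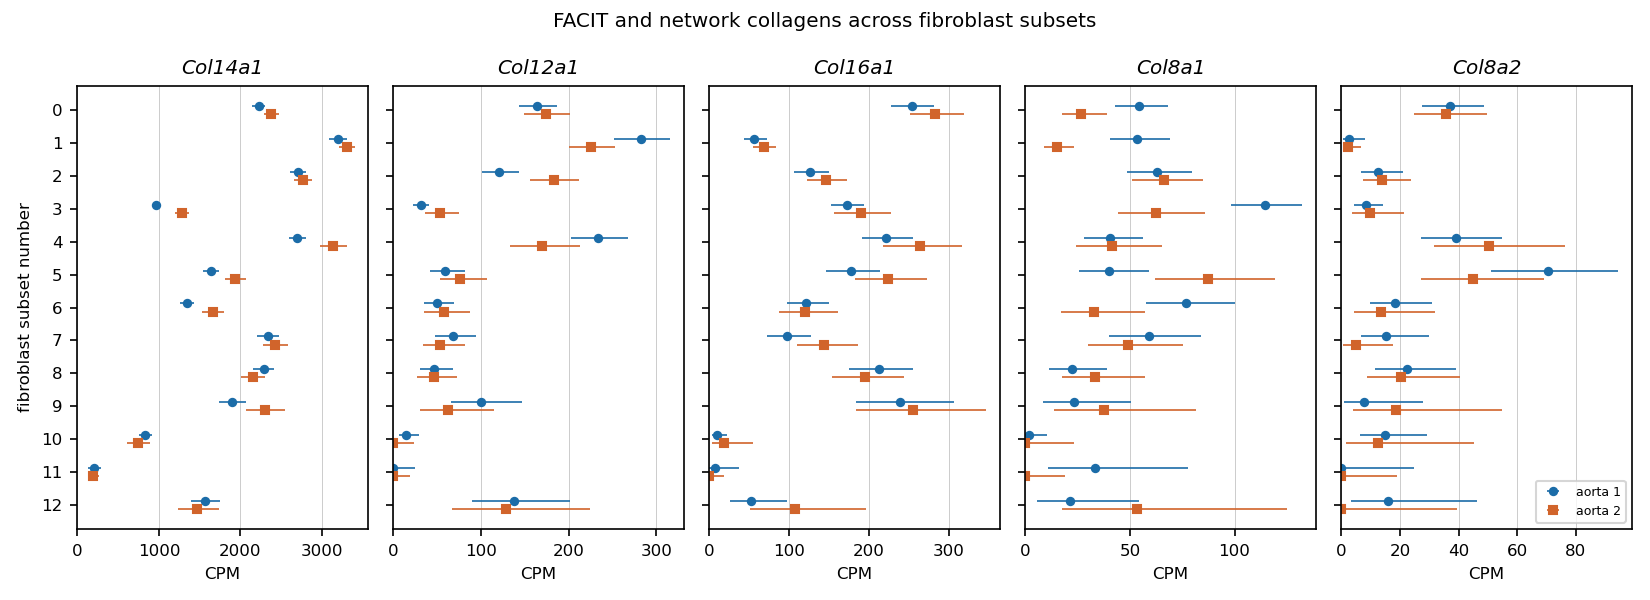
Levels of *Col14a1*, *Col12a1*, *Col16a1*, *Col8a1* and *Col8a2* (CPM) in each fibroblast subset, with 1 point for each aorta and exact Poisson intervals for counting error. *Col14a1* and *Col12a1* are highest in subset 1 (3196 and 3301 CPM, and 282 and 225 CPM), where *Col16a1* is at 56.1 and 68.4 CPM.

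The genes with the most similar profile over 56 sums (28 clusters in each aorta) were sought among 9370 genes by Pearson's r of log2(CPM + 1), as a description. For *Col6a1* they were *Col1a2* (r = 0.92), the partner chain *Col6a2* (0.92) and *Mmp23* (0.91). *Col6a2* was closest to *Gpx8* (0.93), *Fzd2* (0.92) and the collagen receptor gene *Ddr2* (0.92). *Col6a3* had neither partner among its nearest genes, which were *Ank2* (0.85), *Dkk3* (0.85) and *Adamtsl3* (0.85). *Col14a1* was closest to the fibrillar collagen genes *Col1a1* (0.89) and *Col3a1* (0.86) and to *Islr* (0.87), and *Col12a1* to *Zfhx4* (0.89), *Dclk1* (0.88) and *Naalad2* (0.88). For *Col16a1* they were *Svep1*, *Wnt5a* and *Smoc2* (0.84 each). *Col8a1* had the weakest likeness, with *Cyp1b1* (0.79), *Vegfc* (0.76) and *Col4a3* (0.76). *Col8a2* was closest to *Lsamp* (0.86), *Sult5a1* (0.85) and *Tspan11* (0.82).

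Of 11 other genes of the same subfamilies, 3 passed the filter on low counts, and *Col6a4* had 0 UMIs in the named cell types. *Col6a6*, which encodes a further collagen VI chain, was at 146 and 135 CPM in fibroblasts, 56.9 and 112 CPM in mesothelial cells and 8.29 and 11.3 CPM in SMCs, with a log2 fold change of -3.78 ± 0.19 for SMCs over fibroblasts (edgeR adjusted p = 6.65e-15). *Col6a5*, another collagen VI chain, was highest in mesothelial cells at 118 and 110 CPM, with 19 and 46 UMIs in fibroblasts and 3 and 0 UMIs in SMCs. Within mesothelial cells a cluster of 19 and 5 cells had 741 and 614 CPM. *Col19a1*, a FACIT gene, was found in SMCs at 5.12 and 5.79 CPM (89 and 70 UMIs) and gave 0 UMIs in fibroblasts. SMCs were at least 16.2-fold and 12.6-fold higher, measured against 3 UMIs in the fibroblasts of each aorta.

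For the other 25 collagen genes, 19 were tested between SMCs and fibroblasts, of which 1 was called as higher in SMCs and 10 as higher in fibroblasts, with a median log2 fold change of -1.29. The one higher in SMCs was *Col18a1*, a basement membrane collagen, at 1109 and 1090 CPM against 49.4 and 53.3 CPM. The most negative values were those of *Col5a3* (-6.12 ± 0.24), *Col4a4* (-3.99 ± 0.17) and *Col11a1* (-3.93 ± 0.54). *Col4a4* was low in SMCs rather than particular to fibroblasts, since endothelial cells (258 and 334 CPM) and mesothelial cells (229 and 198 CPM) had levels near the 279 and 240 CPM of fibroblasts. *Col17a1* had 0 UMIs. Among 10 matrix partners that bind these collagens or lie with them on fibrils, 0 were called as higher in SMCs and 7 as higher in fibroblasts, with a median of -2.88. The small proteoglycan genes *Dcn* (-6.38 ± 0.60) and *Fmod* (-6.30 ± 0.18) and the genes *Comp* (-4.41 ± 0.22) and *Matn2* (-3.19 ± 0.12), which encode adaptor proteins of the matrix, were among them.

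Receptors differed in both directions. Of 12 receptor genes tested, 4 were called as higher in SMCs and 6 as higher in fibroblasts (median log2 fold change -1.11). The proteoglycan gene *Cspg4*, whose product binds collagen VI, was at 291 and 296 CPM in SMCs against 15.7 and 16.4 CPM in fibroblasts (4.27 ± 0.12). *Antxr2*, which encodes a receptor that takes up collagen VI, was at 15.3 and 14.4 CPM against 96.4 and 119 CPM (-2.76 ± 0.13). The collagen-binding integrin genes *Itga11* (-4.74 ± 0.28) and *Itga2* (-4.59 ± 0.33) were higher in fibroblasts. The other 3 receptor genes called as higher in SMCs, named after their values were seen, were all integrin genes: *Itga10* (2.40 ± 0.26), *Itgb1* (1.64 ± 0.18) and *Itga1* (1.32 ± 0.13). *Itga1* was at 234 and 216 CPM in SMCs and 104 and 85.6 CPM in fibroblasts.

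Of 18 genes for collagen biosynthesis, 16 were tested, and 1 was called as higher in SMCs and 5 as higher in fibroblasts, with a median of -0.88. *P3h2*, a prolyl 3-hydroxylase gene, was higher in SMCs (3.83 ± 0.25). *Bmp1*, which encodes a procollagen C-proteinase, had a log2 fold change of -3.02 ± 0.12, and *P4ha1*, which encodes a prolyl 4-hydroxylase subunit, of -1.34 ± 0.12. *Serpinh1*, which encodes a collagen-specific chaperone, was at 608 and 600 CPM in SMCs and 1587 and 1536 CPM in fibroblasts (-1.29 ± 0.15).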

How the data were processed

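Thoracic aortas of 2 GFPiSMC mice were each run as 1 library with Chromium 3′ v3.1 chemistry. The authors deposited raw UMI counts per gene and cell. Per the submitters' processing notes these were made with Cell Ranger on mm10, and Seurat 4.0 is also named. Use of the strand in counting was not given in the sources used here. The deposited cells equal the numbers before filtering in the labels. The lowest total of a deposited cell was 500 UMIs.

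Cells with over 200 genes, 1000 to 25000 UMIs and under 10% mitochondrial UMIs were kept (6744 and 4698). Doublets called by Scrublet through scanpy 1.11.5 (Python 3.11.15) were removed (205 and 84 cells, 3.04% and 1.79%). The labels give other numbers after filtering, so cells and cluster names can differ from those of the study. Clustering used 2000 variable genes, 30 components, 15 neighbors and Leiden resolution 1 (leidenalg 0.10.2) and left out 84 genes, the collagens and the gene lists. Clusters were named from markers of 12 cell classes (at least 3 markers, each in at least 25% of cells), and no name was given where 2 or more of the 10 leading genes marked another class, or where depth was under 33.3% of the median with no leading marker. Every name means likeness by markers only. The lymphocyte sums join T, B and innate lymphoid clusters.

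Sums of UMIs for each cell type of each aorta were used, since cells are not replicates, and fitted in edgeR 4.0.16 (R 4.3.3) with TMM scaling, filterByExpr, 1 model for all named types and Benjamini-Hochberg adjustment. Between types, called means a log2 fold change beyond 1 in size with an adjusted p under 0.05, and among subsets the p alone. Tests were checked on simulated data. With 1 sum per type and aorta, p-values rest on the spread between 2 animals, pooled over all named types and moderated across genes. The main model treats sums from the same aorta as independent. Sums of the same number come from the same animal. Deviations between aortas correlated over 973 genes at r = 0.378 for SMCs and fibroblasts and at 0.0523 to 0.389 over all pairs of the 4 compared types. Alternatives were DESeq2 1.42.0, no gene filter, 5000 to 25000 UMIs, doublets kept, other resolutions and clusterings, the aorta as a term, and subsets or an aorta left out. Intervals (95%, exact) cover counting error only.

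All 8 collagens are named. From each gene list, up to 4 called genes with the largest absolute log2 fold change between SMCs and fibroblasts are named, as is any gene at 0 UMIs. The 3 genes of highest correlation are given for each collagen. The collagens and lists were chosen with earlier results of these data known.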

Additional observations from a re-analysis of the deposited data

Results flagged for a closer look

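Signals of *Col6a1* and *Col14a1* appeared in 2 groups of cells that none of the tested pairs above includes, at levels above those of lymphocytes in both aortas. *Col6a1* was at 66.0 CPM in aorta 1 and 63.1 CPM in aorta 2 in lymphatic endothelial cells, against 16.9 and 19.8 CPM in lymphocytes. The counts behind these values were 11 UMIs in 4 of 47 cells and 16 UMIs in 2 of 76 cells. Fibroblast markers summed to 835 and 1131 CPM in the same cells, against 70.1 and 145 CPM in lymphocytes. Most of this sum was *Clec3b* (390 and 548 CPM) and *Serping1* (390 and 477 CPM), and *Pdgfra* was at 24.0 and 27.6 CPM (4 and 7 UMIs), against 2.71 and 3.96 CPM in lymphocytes. *Lum* was at 0 and 43.4 CPM (0 and 11 UMIs), against 34.2 and 19.8 CPM in lymphocytes, and *Dpt* at 18.0 and 7.88 CPM (3 and 2 UMIs), against 7.11 and 26.6 CPM. SMC markers summed to 2539.6 and 843 CPM in these cells and eGFP was at 1015 and 82.8 CPM, against 896 and 929 CPM and 119.9 and 222 CPM in lymphocytes, so that both were higher in aorta 1 and lower in aorta 2. The part of fibroblast and SMC RNA in the signal was not tested.

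*Col14a1* was at 141 and 169 CPM in myeloid cluster 14, led by *Mmp12*, *H2-M2* and *Ms4a7*, from 101 UMIs in 51 of 119 cells and 80 UMIs in 36 of 81 cells. Lymphocytes had 12.9 and 51.5 CPM. Fibroblast markers were at 102 and 57.1 CPM in this cluster, lower than the 170 and 226 CPM of myeloid cluster 4, where *Col14a1* was at 37.9 and 23.8 CPM. *Col14a1* UMIs per fibroblast marker UMI numbered 1.38 and 2.96 in cluster 14 and 0.223 and 0.106 in cluster 4. The highest ratio in another myeloid cluster was 0.75, in cluster 22 of aorta 1 from 15 *Col14a1* UMIs. Over all myeloid cells, *Clec3b* gave 74.0 and 103.6 of the 118.4 and 134.5 CPM of fibroblast markers.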

How the results depend on the processing

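All 8 collagens stayed lower in SMCs than in fibroblasts under every alternative run. Of the alternatives to the main results, 150 were rated the same, 3 newly passed the fold limit and 1 moved. Same meant an unchanged direction and call for a collagen, or a count of genes close to the main count. For the value of an aorta alone it meant a distance from the main value within 1 SD of the 2 aortas. By that rule the *Col8a2* value of aorta 2 alone (-6.73) moved. With DESeq2, *Col6a2* (-1.17) and *Col6a3* (-1.21) passed the fold limit, and *Col6a3* also did (-1.03) when the collagens and lists entered the clustering. The *Col6a3* value of aorta 1 alone (-1.01) lay just beyond that limit too, although it was rated the same by its distance from the main value. Under DESeq2 the median of all genes also shifted, from -0.03 to -0.31. Neither for DESeq2 nor for the clustering was the cause of the change tested. The *Col8a2* value with 1 aorta left out ranged from -6.73 to -5.28. DESeq2 moved the share of called genes higher in SMCs from 55.3% to 45.0% against endothelial cells and from 51.4% to 36.2% against mesothelial cells.

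The replicate block, with the aorta as a term for the pairing by animal, called 2800 genes between SMCs and fibroblasts against 2810 without it, and 4529 and 3271 among SMC and fibroblast subsets against 4327 and 3094. It changed the call of none of the 8 collagens. Other counts of genes called between SMCs and fibroblasts ran from 2517 (5000 to 25000 UMIs) to 3407 (no gene filter). The shares of UMIs in SMCs and fibroblasts moved by more than 1 SD for 10 of 16 values at 5000 to 25000 UMIs and 12 of 16 with doublets kept, and requiring 2 UMIs moved 16 of 16 shares of cells. At 5000 to 25000 UMIs the larger share of *Col6a2* and *Col6a3* passed from fibroblasts to SMCs. Leaving out the SMC cluster of low UMI counts or the fibroblast subset led by SMC markers, both chosen after seeing the data, changed no call of the 8. Leaving SMC subset 6 out of the level ratios and fibroblast subsets 11 and 12 out of the correlations was likewise chosen after seeing the data. *Col8a2* in SMCs rests on 11 UMIs in all, and depth limits what can be said of it there.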
